A study of Rattus norvegicus with 232 samples.

Results

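Some rat genes are cut into many pieces when a transcriptome is assembled from brain RNA. Described here are the Ensembl genes that were split into 10 or more separately measured features. A feature is a gene of the authors' assembly, built by StringTie from reads, and it can carry the identifier of the annotated Ensembl gene it overlaps on the same strand. The members were the features with exactly 1 Ensembl gene identifier, outside 25 to 30 Mb of chromosome 19, whose identifier was carried by 10 or more features. There were 12327 such features out of 99376 in the table (12.4%), and they belonged to 578 of the 13336 Ensembl genes that had a feature with exactly 1 identifier. The rule itself uses no level or strain difference. The features it counts, however, were assembled from reads of the study and kept only if detected above background, according to its methods. The members had a median log2 level of 5.75, against 3.71 over all features of the table.

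The RNA came from untreated male rats, labelled as whole brain, of which a single sagittal side was sequenced per animal according to the study's methods. Ribosomal RNA was depleted and the libraries kept the strand. The table held 45 inbred strains with 3 animals each. There were 90 animals from the 30 HXB/BXH recombinant inbred (RI) strains, which descend from crosses of the progenitors SHR/OlaIpcv and BN-Lx/Cub and carry a fixed mosaic of both genomes. The other 45 animals came from 15 classic inbred strains, which include both progenitors and ACI/SegHsd, COP/CrCrl, DA/OlaHsd, F344/NCrl, F344/NHsd, F344/Stm, LE/Stm, LEW/Crl, LEW/SsNHsd, SHRSP/A3NCrl, SR/JrHsd, SS/JrHsd and WKY/NCrl. All animals were young adults, no animal was treated, and the strains differ in genotype only by their breeding. The values are regularized log2 levels after the authors' removal of 1 technical factor, and no count was given, so the depth of each library is unknown.

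The labelled tissue was borne out by the markers that were found. The mean log2 level of 5 of 5 neuronal markers ran from 13.6 to 14.3 over the libraries other than LE/Stm 2 and 3, and that of 4 of 5 microglial markers from 9.59 to 11.0. A set of 7 libraries was treated as doubtful. In LE/Stm 2 and 3 the mean of 5 of 7 liver markers was 17.4 and 23.6, against 7.03 to 14.1 in the others, with a median of 8.30. The highest of the others thus lay far above that median too. The 3 LEW/Crl libraries were labelled male and had 6.38 to 7.77 for the Y-linked gene Eif2s3y, against 7.06 to 11.5 elsewhere with a median of 10.7, and 7.73 to 8.46 for Kdm5d, against a median of 11.2. Ddx3y did not separate them, with 2.66 to 3.24 and a median of 2.79 elsewhere. F344/NCrl 2 and SHRSP/A3NCrl 1 lay nearest to each other's strain, among 10 libraries that lay nearest to another strain than their own. Their part in the results below was measured by leaving these libraries out.

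Long neuronal genes with large introns are known to be transcribed over hours, and total RNA of brain holds much unspliced RNA from them. An assembler that joins reads into transcripts can report stretches of such introns, alternative ends, antisense or retained sequence as separate genes. Genes of axon guidance, synaptic adhesion and ion channels are among the longest in the mammalian genome. A quantifier such as RSEM then divides each read among all features that hold its bases. The question put to the data was how far the features of 1 gene follow the same pattern across strains.

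Promoter sequences are shown for genes on which the results below turn and that had an entry in RefSeq (assembly GRCr8), each from 250 bases before to 50 bases after the annotated start. Those features of Kank1, Gpr12 and Fbxl7 that had a strain effect moved together across strains, while 2 features of Haus3 moved in opposite directions. The feature that held the annotated Kank1 transcript was not among those with a strain effect. Capitals mark CCAAT and GGGCGG boxes on either strand (ATTGG and CCGCCC on the other), and TATAAA was also searched. Of 33469 promoters of the same length, 37.5% held CCAAT, 33.1% held GGGCGG and 14.2% held TATAAA. The Kank1 window held none of them, those of Gpr12 and Fbxl7 held 1 GGGCGG each, and that of Haus3 held 2 CCAAT and 2 GGGCGG.
Kank1, chr1:232381470-232381769, plus strand: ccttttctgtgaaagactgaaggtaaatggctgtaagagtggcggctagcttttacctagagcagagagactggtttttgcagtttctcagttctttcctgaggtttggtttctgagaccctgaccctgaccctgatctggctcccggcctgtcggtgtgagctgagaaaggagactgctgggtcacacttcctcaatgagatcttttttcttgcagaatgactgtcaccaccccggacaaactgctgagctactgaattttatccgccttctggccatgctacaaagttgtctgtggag
Gpr12, chr12:13637074-13637373, plus strand: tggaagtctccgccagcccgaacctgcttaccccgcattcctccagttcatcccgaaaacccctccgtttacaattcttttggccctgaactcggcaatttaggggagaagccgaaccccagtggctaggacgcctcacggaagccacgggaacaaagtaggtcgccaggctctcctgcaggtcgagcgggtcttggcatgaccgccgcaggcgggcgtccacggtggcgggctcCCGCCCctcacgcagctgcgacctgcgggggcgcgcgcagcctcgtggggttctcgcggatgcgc
Fbxl7, chr2:79239648-79239947, minus strand: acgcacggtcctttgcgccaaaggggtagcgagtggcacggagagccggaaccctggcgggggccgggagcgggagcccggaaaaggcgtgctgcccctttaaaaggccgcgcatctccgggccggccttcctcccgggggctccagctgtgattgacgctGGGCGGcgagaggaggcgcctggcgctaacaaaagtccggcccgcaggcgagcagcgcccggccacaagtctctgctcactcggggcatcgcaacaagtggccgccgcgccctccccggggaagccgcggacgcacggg
Haus3, chr14:80804865-80805164, plus strand: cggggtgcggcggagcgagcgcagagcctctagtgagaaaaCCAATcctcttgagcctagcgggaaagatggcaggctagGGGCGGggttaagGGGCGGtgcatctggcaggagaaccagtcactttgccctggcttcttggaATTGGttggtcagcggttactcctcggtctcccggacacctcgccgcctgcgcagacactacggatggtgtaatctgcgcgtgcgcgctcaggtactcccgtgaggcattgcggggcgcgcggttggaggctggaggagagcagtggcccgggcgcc

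A name taken from the annotation did not always describe what a feature measured. A group of 13 split genes was named for a small or structural RNA, and its 245 features had at least 204 exonic bases with a median of 2692. Mir138-1, the locus of a neuronal miRNA, was chosen after its values were seen. It had 62 features with 808 to 192540 exonic bases, over chr8:131001628-131790233 of rn6. The mature product, shown because it is far shorter than any of them, has 23 bases, with the seed (bases 2 to 8) in capitals.
rno-miR-138-5p: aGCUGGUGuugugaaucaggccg
The RNA fraction sequenced was the long one, so the values under this name are levels of long RNAs around the locus and not of the miRNA.

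The split genes were long and their features lay on top of each other. A gene had a median of 14.5 features and at most 183. The features of a gene together spanned a median of 394 kb, from 16.2 kb for Ensembl gene AY172581.9 of the mitochondrial genome to 3358 kb for LOC100912195. Of the 12327 features, 11261 (91.4%) shared exon bases with another feature of their gene and 10708 (86.9%) lay inside the span of another. The median exonic length was 6276 bases, against 1959 bases over all features of the table, and 1.14% had a single exon, against 27.7%. Only 454 features held an annotated Ensembl transcript. In 438 genes exactly 1 feature did so, in 8 genes 2 did, and in 132 genes none did. Placeholder symbols, which mark genes without an established name, were carried by 157 of the 578 genes.

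Within a gene the features differed widely in level. On the deposited log2 scale, which is not divided by length, the highest feature lay a median of 5.58 above the median feature of its gene and 9.08 above the lowest. In the 446 genes with a feature that held an Ensembl transcript, that feature was the highest in 292 genes (65.5%) and the highest per kb of exon in 232 genes (52.0%).

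The genes with the most features were a set of long neuronal genes and unnamed loci. Robo2, a receptor for the Slit axon guidance cues, had 183 features over chr11:11062790-13428996 (rn6, minus strand). Its highest feature held 5 Ensembl transcripts and its strain means lay between 14.35 in HXB5/Ipcv and 14.80 in F344/NHsd, which was no called strain effect (adjusted p = 0.158, limma). Il1rapl1, a synaptic membrane protein of the interleukin-1 receptor family, had 153 features on chromosome X, and the strain means of its highest feature ran from 12.95 in HXB20/Ipcv to 13.68 in F344/NHsd (adjusted p = 0.0215). Dpp10, an auxiliary subunit of Kv4 potassium channels, had 142 features, and its highest one ran from 13.69 in HXB15/Ipcv to 14.45 in SR/JrHsd (adjusted p = 0.0178). The other genes of this group, LOC100912195 with 178 features and AABR07004018.1 with 146, lie close to each other on chromosome 1. Features called for a strain effect at a 5% false discovery rate were 37 of 183 in Robo2 (20.2%), 29 of 153 in Il1rapl1 (19.0%) and 42 of 142 in Dpp10 (29.6%), all below the 36.7% of all features tested. The loci on chromosome 1 lay above it, with 121 of 178 in LOC100912195 (68.0%) and 117 of 146 in AABR07004018.1 (80.1%).

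Strain effects were about as common among split genes as elsewhere in the table. A feature was called where the F-test over strains passed 5% FDR, and 4721 of the 12327 features were called (38.3%), against 36.7% of all features tested. The share was 40.8% for features of genes with 2 to 9 features, 49.1% for genes with a single feature and 33.5% for features without an Ensembl identifier. Per gene the median share called was 33.3%. In 12 genes no feature was called, in 396 genes 4 or more were, and in 5 genes all were. With batch as a covariate 2794 were called (22.7%, against 18.8% of all features), and without the doubtful libraries 4555 (37.0%, against 34.7%). Without replicate 2, which every strain but BXH8/Cub has, 1574 were called (12.8%, against 12.2% of all). With every replicate, but among features above the median level of the table, the order was the opposite, with 45.9% of members called against 50.4% of all.

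Features of the same gene agreed weakly across strains. For each pair of features in a gene, the agreement was Pearson's r across the 45 strain means. The mean over pairs had a median of 0.20 over the 578 genes, with quartiles of 0.112 and 0.317. It passed 0.5 in 39 genes and fell below 0 in 12. Among called features alone, in the 539 genes with at least a pair of them, the median was 0.244, it passed 0.5 in 99 genes and fell below 0 in 74. These correlations are descriptions. The strains are related, the features share libraries, and no p is given.

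Pairs of features of 1 gene nevertheless stood apart from pairs on different chromosomes. Over 246323 pairs within genes the median r was 0.214, and over pairs of members on different chromosomes it was 0.078. When both features were called the medians were 0.304 and 0.054. The share of such called pairs with r above 0.5 was 32.6% within genes and 5.76% between chromosomes. At the other end, 27.1% of the called pairs within genes had r below 0. Pairs were pooled over genes, so genes with many called features weigh most, such as LOC100912195 with 121 and AABR07004018.1 with 117. Features of 1 gene also lie close on the chromosome, so sharing a gene and linkage cannot be told apart here. Shared exon bases went with higher agreement only in part. Called pairs that shared no exon base had a median r of 0.285, those that shared under 50% of the shorter feature 0.501, and those that shared more 0.444. Over all pairs, called or not, these medians were 0.208, 0.322 and 0.212, and r was below 0 in 23.4%, 18.0% and 27.8%.

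**Figure D1:**
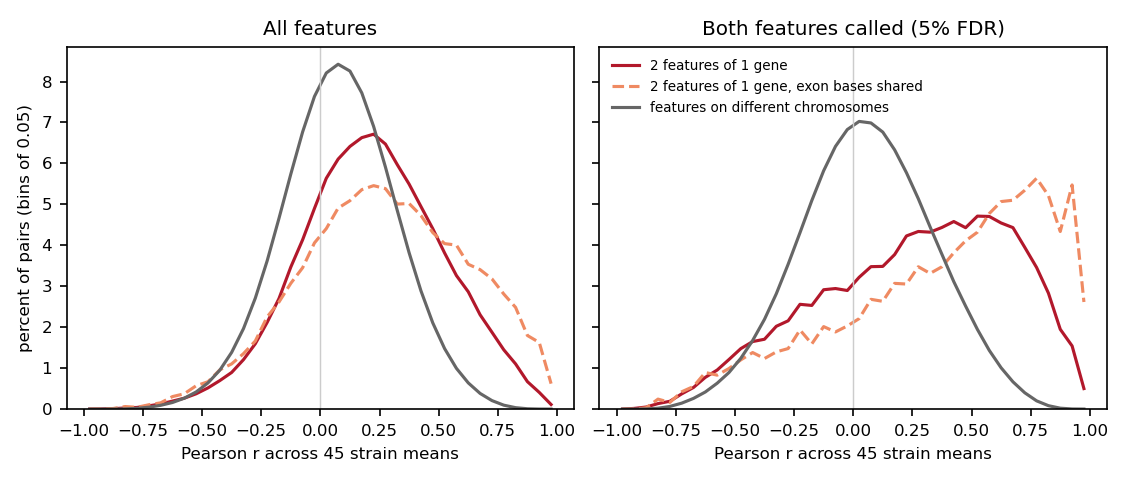
Distribution of Pearson's r across 45 strain means for pairs of features, in bins of 0.05 (x axis: r; y axis: percent of pairs), for all features on the left and for pairs with both features called at 5% FDR on the right. Pairs within 1 gene (red; dashed where exon bases are shared) lie to the right of pairs on different chromosomes (grey), with medians of 0.304 and 0.054 among called pairs, and both reach below 0.

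The deposited Ensembl table gives 1 value per annotated gene, and 557 of the split genes were in it, with 132 animals in both tables. Both tables come from largely the same reads, so this agreement is no independent check of a feature. A feature that holds the annotated transcript, or many of the gene's reads, lies nearer to that value in part by construction. Agreement with the Ensembl value depended on which feature was taken. The median r was 0.708 for the 454 features that held an Ensembl transcript and 0.171 for the 11335 that held none. It was 0.581 for the highest feature of each gene and 0.173 for all others. Summing the features of a gene on the linear scale gave 0.538, and in 275 genes the sum lay nearer to the Ensembl value than the highest feature did. The agreement was also ordered by level. It was 0.109 for features with a mean log2 level under 3 and 0.346 for those of 9 or more.

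**Figure D2:**
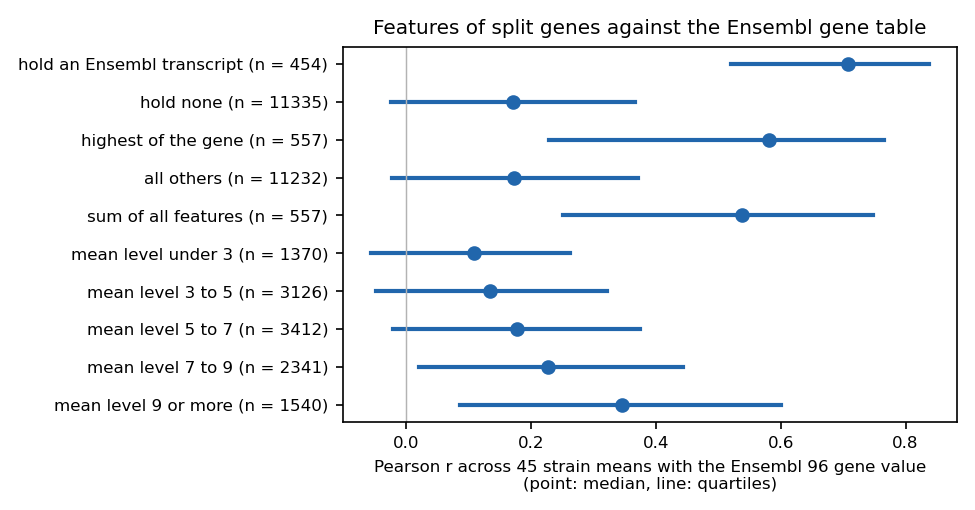
Median (point) and quartiles (line) of Pearson's r across 45 strain means between features of split genes and the Ensembl value of their gene (x axis: r; y axis: groups of features, with n). Features that hold an Ensembl transcript reach a median of 0.708 and the other features 0.171, and the median rises from the lowest to the highest level class.

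The lowest agreements among the 379 genes with a called Ensembl value were found in a set of 3 genes. LOC498368 had r = -0.64. The strain means of its highest feature, of 10.8 on average, ran from 10.53 in BXH3/Cub to 11.08 in HXB17/Ipcv. Grk4, a kinase of G protein-coupled receptors, had r = -0.58, and its highest feature had 105 exons and a strain range of 14.49 in SHR/OlaIpcv to 14.88 in BXH5/Cub with no called strain effect (adjusted p = 0.777, limma). Borcs7, a subunit of the BORC complex that places lysosomes in the cell, had r = -0.56. Its highest feature held no Ensembl transcript, and ran from 11.76 in SHR/OlaIpcv to 12.77 in HXB5/Ipcv (adjusted p = 3.53e-07). For LOC498368 and Borcs7, then, the feature with the highest value under the gene's name held no annotated transcript of it. In Grk4 it did hold 1.

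To ask whether a feature followed another strain pattern than the rest of its gene, its value was set against the median of the other features in the same animal. This difference varied with strain in 3604 of the 12327 features (29.2%), against 30.3% of all features of genes with 2 or more features and 31.2% where genes had 2 to 9. At least 1 feature was called in 517 of the 578 genes. The fit with batch gave 1995 calls (16.2%, against 17.6% of all features tested). Without the doubtful libraries there were 3416 (27.7%, against 28.7%).

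A gene was called agreeing where each of 4 or more called features had r of 0.5 or more with the mean of the others, and 26 genes met this. In 27 genes exactly 1 called feature deviated, with r below 0.2 and a call against the rest of its gene. The other 343 of the 396 genes with 4 or more called features were mixed. These classes were set by the strain means themselves, so the agreement or deviance within them is a description. They were unstable: without 1 replicate number, 3 to 14 of the 26 agreeing genes were agreeing again, and 1 to 3 of the 27 genes had the same deviant feature. The 26 agreeing genes held 424 features, of which 192 were called, and their median r was 0.706.

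Kank1, an ankyrin-repeat protein of the cell cortex, had the highest agreement, with r = 0.951 over 11 called features of 12 (chr1:243162785-243400835, rn6, plus strand). The called feature with the highest level had strain means of 6.59 to 7.76 in the HXB/BXH strains, with a median of 7.16. In the 13 inbred strains other than the progenitors they were 7.85 to 9.38, with a median of 8.38, so that these groups did not overlap. The gene was picked for its high agreement, and the share of all features without such overlap of strain means was not computed. BN-Lx/Cub had 6.72 and SHR/OlaIpcv 7.23. The animals of HXB7/Ipcv had 6.31, 6.62 and 6.85, and those of LEW/SsNHsd 9.35, 9.35 and 9.43. The feature that held the Kank1 Ensembl transcript was the exception. It was the highest of the gene, with strain means of 10.87 to 11.39, and was the only one not called (adjusted p = 0.141, limma).

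The labels give 13 batches to these libraries, 8 with HXB/BXH or progenitor animals and 6 with the other inbred strains, so that panel and batch cannot be told apart outside the single batch that held both. According to the study's methods, HXB/BXH and progenitor brains came from a Prague colony in liquid nitrogen. The other inbred rats came from commercial suppliers, and their brains were put in RNAlater. Panel thus also ran with colony and tissue storage, within that batch too. In that batch, number 10, the same Kank1 feature had 8.01 to 8.90 in 5 HXB/BXH animals and 7.87 to 9.41 in 12 other inbred animals, which overlapped. In the other batches 91 HXB/BXH and progenitor animals had a median of 7.02, from 6.17 to 8.70, and 27 other inbred animals a median of 8.42, from 6.88 to 9.43. The strains of those 5 animals had further animals elsewhere, at 6.32 to 7.78. For BXH8/Cub the values were 6.32 in batch 3, 7.78 in batch 7 and 8.75 in batch 10. Batch 10 is that of the characteristic and of the column names, and the titles of all 17 animals give another batch. By title the 5 HXB/BXH animals were in batch 7 and the 12 others in batches 8 and 9, and no batch held both panels. With batch as a covariate none of these 11 Kank1 features was called, with a lowest adjusted p of 0.112 (limma). Gpr12, an orphan G protein-coupled receptor of brain, had r = 0.861 over 22 called features of 24, and again none was called with batch as a covariate (lowest adjusted p = 0.0759). AABR07039236.1, on chromosome X, had r = 0.826 over 8 called features of 14, and 1 was called with batch as a covariate.

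Fbxl7, the substrate-binding subunit of a ubiquitin ligase, had r = 0.819 over 7 called features of 11 (chr2:79067915-79440094, rn6, minus strand), and 6 of the 7 were called with batch as a covariate. Its highest feature held the Ensembl transcript and had strain means of 8.99 to 9.34 in the HXB/BXH strains and 9.22 to 9.82 in the other inbred strains, with medians of 9.21 and 9.58. In batch 10 the 5 HXB/BXH animals had 8.81 to 9.24 and the 12 others 9.32 to 9.96, which did not overlap. This held for 2 of its 7 called features, against 1.36% of all features and 1.35% of those of split genes. In the other batches the groups overlapped, with 8.87 to 9.80 in 91 HXB/BXH and progenitor animals and 9.13 to 10.0 in 27 others. In every batch, number 10 included, the groups also differed in colony and tissue storage. Kctd6, a BTB-domain adaptor of ubiquitin ligases, kept 12 of 13 called features in the fit with batch, Zscan25, a zinc finger protein, 4 of 4, Cntn5, a contactin of neuronal adhesion, 4 of 5, and Jarid2, a cofactor of Polycomb repression, 4 of 6. These 4 genes were named after their values were seen. Over the 26 agreeing genes 81 of the 192 called features kept their call in that fit, against 53.8% of all called features of split genes. After batch was taken out of the strain means 22 of the 26 had a mean r above 0.5, with a median of 0.619, while 15 of the 26 were agreeing again by the class rule. The median r was 0.594 in the HXB/BXH strains alone and 0.608 in the inbred strains alone, where 15 and 11 of the 26 met the rule again.

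**Figure D3:**
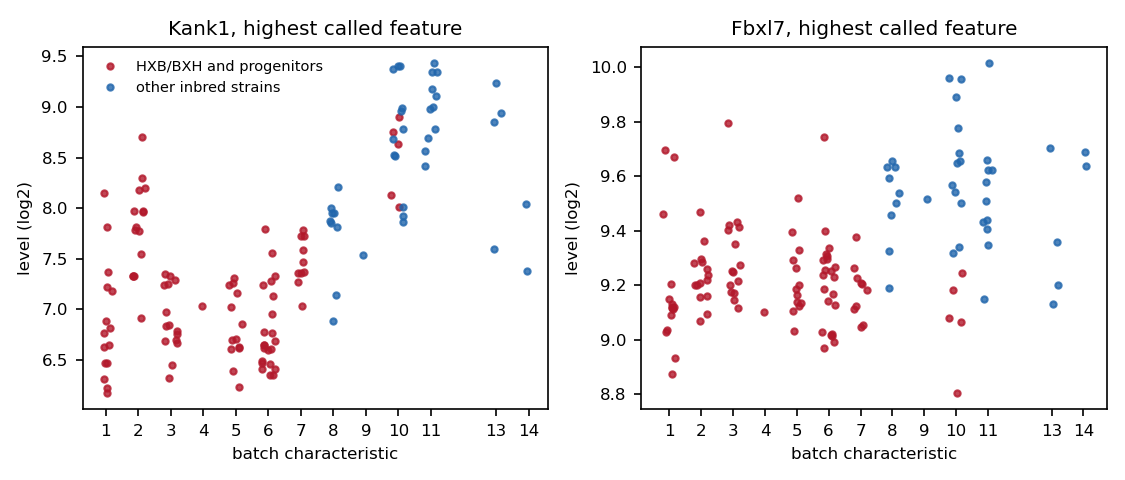
Log2 level (y axis) of the highest called feature of Kank1 (left) and Fbxl7 (right) in each animal by batch characteristic (x axis), for HXB/BXH and progenitor animals (red) and other inbred strains (blue). In batch 10, which held both by this label, the Kank1 values overlap (8.01 to 8.90 against 7.87 to 9.41) and the Fbxl7 values do not (8.81 to 9.24 against 9.32 to 9.96).

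The deviant features were set beside the other called features of the same genes. Of the 27, 1 held an Ensembl transcript (3.70%, against 5.15% of the 194 others) and 4 were the highest of their gene (14.8%, against 9.28%). They shared exon bases with another feature in 92.6% of cases, against 89.7% of the others. Their median level was 5.72 against 5.81, with a median exonic length of 4869 against 6273 bases, and no test of these differences was run. The median SD of their strain means was 0.514 against 0.394. The class rule also required a deviant feature, but not the others, to be called against the rest of its gene, which can favour a larger spread. None was called between the progenitors, against 24 of the others (12.4%) and 2.10% of all features tested. Most of those 24 were features of a single gene, AABR07000740.2, so they are not independent observations. Their r with the other called features lay below 0 in 15 genes. Within the HXB/BXH strains alone it was below 0.2 for 22 of the 27 and within the inbred strains alone for 19.

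Rbfox1, a splicing regulator of neurons, had the deviant feature with the largest SD of strain means, 1.09. The gene had 21 features over chr10:8228773-10437791, of which 4 were called, and the deviant one (chr10:8776209-8785151, 3 exons) held no Ensembl transcript. Its animals had 2.93, 3.06 and 6.12 in HXB24/Ipcv (4.04 ± 1.80, SD, n = 3), the lowest strain, and 7.49, 7.91 and 8.40 in SR/JrHsd (7.93 ± 0.46, SD, n = 3), the highest. A single animal of HXB24/Ipcv thus lay far above its strain mates. Its r with the other called features was -0.45 over all strains, -0.06 in the HXB/BXH strains and 0.36 in the inbred strains, so that it was positive within the inbred strains. In batch 10 the feature had 5.47 to 6.84 in the HXB/BXH animals and 6.65 to 8.92 in the others.

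Other deviant features also changed their agreement with the strains used. Dnajc5b, a J-domain cochaperone, had a deviant feature with r = -0.45 over all strains, 0.13 in the HXB/BXH strains and -0.57 in the inbred strains. Its animals had 2.09, 2.18 and 3.92 in SR/JrHsd and 6.14, 6.31 and 6.37 in HXB3/Ipcv. For Cep192, a centrosome scaffold, r was -0.15, -0.34 and 0.31 in the same order, with a range from 3.33 in HXB7/Ipcv to 7.27 in SHRSP/A3NCrl. The deviant feature of Csmd2, a large membrane protein with CUB and sushi domains, had 2142 exonic bases and strain means of 0.88 in HXB3/Ipcv to 3.74 in BXH10/Cub. Its r was 0.18, 0.09 and 0.11, and 0.30 with batch taken out, past the limit of 0.2. The locus named 5_8S_rRNA on chromosome 5, in total RNA depleted of ribosomal RNA, had a deviant feature of mean level 12.4 with r = 0.00, which was 0.18 in the HXB/BXH strains, 0.26 in the inbred strains and 0.22 with batch taken out. In this feature the animals of BXH6/Cub had 8.48, 11.6 and 11.9.

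For 2 named genes the extreme strain was LE/Stm, which holds doubtful libraries. SHRSP/A3NCrl, which also holds a doubtful library, was the highest strain for the deviant features of Cep192 and AABR07040412.1 and the lowest for Gucy2g, described below. Without the doubtful libraries r was -0.21 for Cep192 and 0.14 for AABR07040412.1. The deviant feature of Rnf182, a ubiquitin ligase, was also the highest of its gene. Its animals had 4.02, 4.04 and 7.08 in LE/Stm, the lowest strain, and 8.71, 9.49 and 9.51 in HXB17/Ipcv, the highest, and its r of 0.17 became 0.13 without the doubtful libraries. Within each panel it was below 0, at -0.52 in the HXB/BXH strains and -0.16 in the inbred strains, and with batch taken out it was 0.29, past the limit of 0.2. AABR07000740.2 was among the 5 genes with all features called, 25 of 25, and 15 of them were higher in BN-Lx/Cub than in SHR/OlaIpcv with none lower. Its deviant feature had 910 exonic bases, with 1.11, 1.17 and 1.61 in BXH13/Cub and 5.33, 5.35 and 5.79 in LE/Stm. Its r was 0.10, both with all libraries and without the doubtful ones, 0.01 in the HXB/BXH strains and 0.36 in the inbred strains, which is past the limit of 0.2. AABR07040412.1, on chromosome X, had r = 0.03, which was 0.18 in the HXB/BXH strains and -0.27 in the inbred strains.

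Deviant features with r below -0.4 over all strains, in both panels and without the doubtful libraries were found in 3 genes, which were picked after their values were seen. In Gucy2g, a receptor guanylyl cyclase, r was -0.79 over all strains, -0.65 in the HXB/BXH strains and -0.54 in the inbred strains. The deviant feature had 2.35, 4.16 and 4.56 in SHRSP/A3NCrl and 5.07, 5.52 and 6.03 in HXB5/Ipcv. In Myo9b, an unconventional myosin, r was -0.66, -0.64 and -0.45, and the extreme strain means were 4.73 in HXB23/Ipcv and 6.82 in WKY/NCrl. At the locus named RNaseP_nuc r was -0.65, -0.66 and -0.86, and the range was narrow, from 11.59 in SHR/OlaIpcv to 12.29 in HXB5/Ipcv.

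Between the progenitors, 341 features of split genes in 124 genes were called, or 2.77%, against 2.10% of all features. Among features above the median level of the table the shares were the same, 3.13% of members and 3.13% of all. Without that filter the share was 2.21% for genes with 2 to 9 features, 1.82% for genes with a single feature and 1.80% for features without an identifier. Higher in BN-Lx/Cub were 182 features (1.48%, against 1.07% of all), with 1.27%, 1.45% and 0.717% in the same other classes. Lower in BN-Lx/Cub were 159 (1.29%, against 1.02% of all), with 0.938%, 0.374% and 1.08%. The median difference over the members was -0.13 on the log2 scale and over all features -0.07. The balance of directions changed with the animals used. Without replicate 1 of every strain there were 599 calls (4.86%, against 2.41% of all features), 130 higher and 469 lower, of which 222 were shared with the 341. Without replicate 2 there were 110 higher and 67 lower (together 1.44%, against 1.06% of all features). Without replicate 3 there were 119 and 67 (together 1.51%, against 1.08%). With batch as a covariate 152 were called (1.23%, against 1.08% of all features), 73 higher and 79 lower. In the columns used, the progenitor animals shared no batch by characteristic, with 3 and 4 for BN-Lx/Cub and 1 and 6 for SHR/OlaIpcv. The column of SHR/OlaIpcv replicate 3 is listed under 2 samples, of which 1 has batch 4 in its title. Further libraries of these strains in other batches were not in the table.

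The 3 largest called differences in each direction belonged to 5 genes. The feature of Ascc1, part of the ASC-1 transcriptional and alkylation-repair complex, at chr20:29573630-29681718 had 8.47, 10.0 and 9.78 in the BN-Lx/Cub animals and 4.48, 3.29 and 3.27 in the SHR/OlaIpcv animals. Its difference was 5.74 ± 0.96 (SE, log2; adjusted p = 9.28e-06, limma). The feature of Mt-nd6, a complex I subunit of the mitochondrial genome, had 6.09, 9.45 and 6.11 in BN-Lx/Cub against 12.6, 11.4 and 12.8 in SHR/OlaIpcv. BN-Lx/Cub minus SHR/OlaIpcv was -5.05 ± 0.95 (adjusted p = 0.000121, limma), and -3.49 without a call once batch was a covariate (adjusted p = 0.248). For both features the animals of the strains did not overlap. Both were picked for a large difference, and the share of all features without such overlap was not computed. Ascc1 and Mt-nd6 each had a single feature called between the progenitors, out of 10.

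In 19 genes, with 125 called features, some features were higher in BN-Lx/Cub and others lower. For the most opposed pair of each, a strain was placed on the BN-Lx/Cub or the SHR/OlaIpcv side of the mean of both progenitors, feature by feature. The RI strains were other animals than those that chose the pair. In 11 of the 19 genes at least 25 of 30 RI strains had both features on the same parental side, so that the features stayed opposed as in the progenitors. Over all called features of the 19 genes, 98 of 125 were on the matching side in at least 25 strains, and in 8 genes all were. These counts include the reference feature of each gene, which matches itself in all 30 strains by construction. Features of 1 locus are linked, and no share to be had from linkage was computed. The number of genes with such a pair was 10 to 12 with batch taken out or without 1 replicate number. The calls themselves were less stable. With batch as a covariate 128 of the 341 progenitor calls of split genes were kept. Of 40 features followed over the alternatives, the opposed pairs among them, 28 lost their call under 1 or more. The pairs shared exon bases in 4 of the 19 genes. In the other genes the pair shared no exon base.

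AABR07004018.1, an unnamed locus at chr1:121141681-123221773 (rn6, minus strand), had the most called features of these, 9 higher and 20 lower in BN-Lx/Cub. The feature at chr1:121716751-121753544 had 6.09, 6.76 and 5.90 in BN-Lx/Cub and 2.00, 1.78 and 1.76 in SHR/OlaIpcv. It was higher in BN-Lx/Cub by 4.40 ± 0.63 (SE, log2; adjusted p = 1.59e-07, limma). The feature at chr1:121780097-121868884 had 2.39, 2.31 and 2.29 against 6.33, 7.63 and 7.81, a difference of -4.93 ± 0.72 (adjusted p = 3.31e-07). They share no exon base and lie 26553 bases apart. In the 30 RI strains this pair never broke apart. Of the 29 called features of the gene, though, 21 were on the matching side in at least 25 strains, the reference feature itself included. In 10 strains the first had 6.12 to 6.90 and the second 2.31 to 2.78, and in 20 strains the first had 1.47 to 3.26 and the second 4.92 to 7.02. All 13 other inbred strains lay on the SHR/OlaIpcv side for both. LOC100912195, SNORD115 and AABR07003751.1, also among the 19, are its neighbours on chromosome 1, so these 4 genes are not independent observations. SNORD115 is named for small nucleolar RNAs of the imprinted Prader-Willi region. In LOC100912195 29 of 30 strains had both features on the same side, in SNORD115 28, and in AABR07003751.1 23.

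Kcnip4 encodes a calcium-binding modulator of Kv4 channels and had 105 features over chr14:65140084-66749178. Its feature at chr14:65262765-65269530 had 2.81, 5.03 and 2.71 in BN-Lx/Cub and 6.98, 9.34 and 8.59 in SHR/OlaIpcv. The difference was -4.79 ± 0.98 (adjusted p = 0.000527, limma). Another, at chr14:65332016-65964707, had 10.6, 9.09 and 8.77 against 3.63, 6.91 and 6.51, a difference of 3.79 ± 1.08 (adjusted p = 0.0370). Neither was called with batch as a covariate, where the differences were -4.87 (adjusted p = 0.0652) and 4.36 (adjusted p = 0.206), and the second was not called without replicate 1 (2.21, adjusted p = 0.502) or without replicate 3 (4.56, adjusted p = 0.118) either. In 26 of 30 RI strains both were on the same parental side, 13 on each. The other inbred strains were mixed, with 9 of 13 on the BN-Lx/Cub side for the second feature and 2 of 13 for the first.

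**Figure D4:**
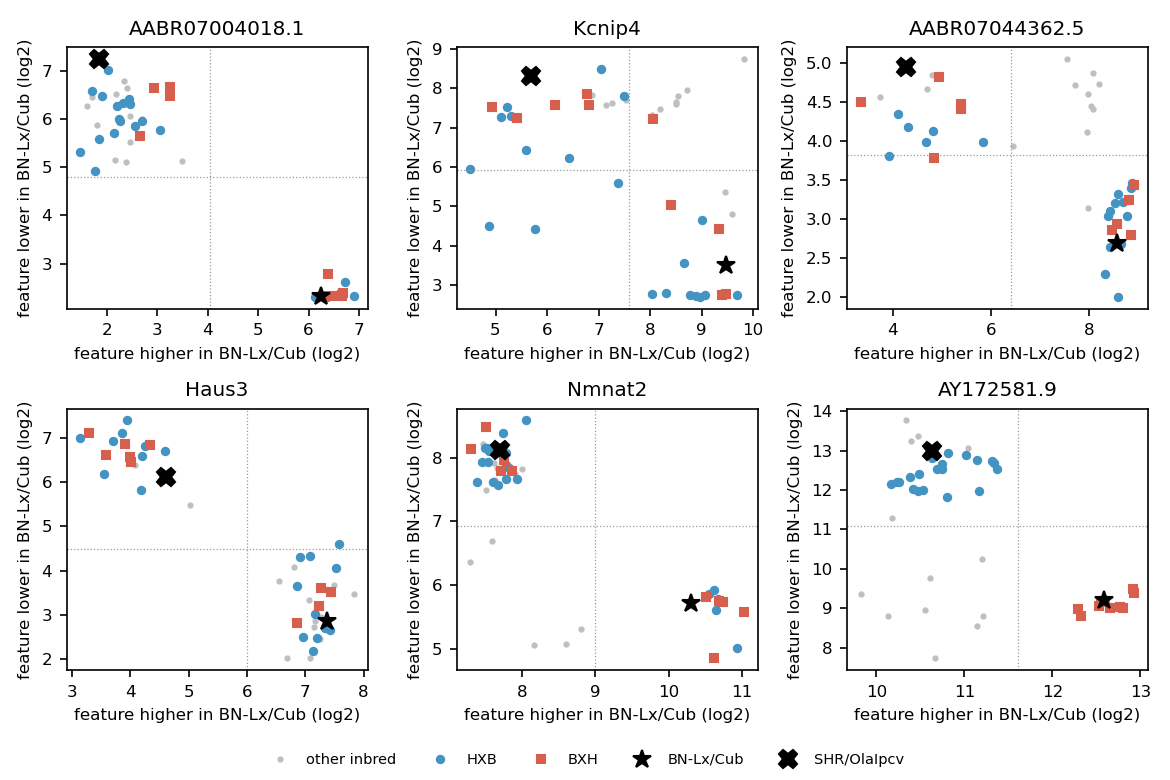
Strain means of the most opposed pair of features in 6 genes (x axis: log2 level of the feature higher in BN-Lx/Cub; y axis: that of the feature lower in BN-Lx/Cub), for HXB (blue), BXH (red), other inbred strains (grey) and the progenitors (star, BN-Lx/Cub; cross, SHR/OlaIpcv), with dotted lines at the progenitor mean. Of the 30 RI strains, 30 lie with a progenitor in AABR07004018.1, Nmnat2 and AY172581.9, 29 in Haus3, 28 in AABR07044362.5 and 26 in Kcnip4.

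The features of AABR07044362.5 (chr20:3104296-3438664) and Haus3 were opposed in the same way. In AABR07044362.5 the feature at chr20:3207011-3286638 had 8.40, 8.49 and 8.78 in BN-Lx/Cub and 5.06, 4.39 and 3.36 in SHR/OlaIpcv, and its partner had 2.59, 2.66 and 2.81 against 4.90, 4.63 and 5.34. The differences were 4.29 ± 0.56 (adjusted p = 1.23e-08, limma) and -2.27 ± 0.39 (adjusted p = 2.16e-05), and 28 of 30 RI strains kept to the parental sides. In Haus3, a subunit of the augmin complex of the spindle, whose promoter is printed above, the feature at chr14:81687170-81701370 had 7.36, 7.20 and 7.58 against 5.05, 3.95 and 4.84. Its partner at chr14:81724834-81833456 had 2.05, 2.27 and 4.25 against 6.45, 6.12 and 5.79. The differences were 2.77 ± 0.45 (adjusted p = 4.46e-06) and -3.27 ± 0.83 (adjusted p = 0.0116), and 29 of 30 RI strains kept to the sides. The second Haus3 feature was not called without replicate 1 (-2.70, adjusted p = 0.165, limma) or without replicate 2 (-2.97, adjusted p = 0.207). With batch in the model its difference was -5.16 (adjusted p = 0.00138). Of the 13 other inbred strains, 11 had the BN-Lx/Cub side of both Haus3 features.

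Nmnat2 and AY172581.9 were picked after their values were seen. Nmnat2, an enzyme of NAD synthesis in axons, had a pair that shared 3141 exon bases. The first feature (chr13:70455412-70563052) had 10.0, 10.5 and 10.5 in BN-Lx/Cub and 8.00, 7.36 and 7.75 in SHR/OlaIpcv, and the second 5.52, 5.51 and 6.16 against 8.44, 7.41 and 8.50. The differences were 2.60 (adjusted p = 1.31e-10, limma) and -2.39 (adjusted p = 0.000744). The second was not called with batch in the model (-2.08, adjusted p = 0.162) or without replicate 3 (adjusted p = 0.0560). All 30 RI strains kept to the sides, 10 with BN-Lx/Cub, at 10.51 to 11.03 for the first feature, and 20 with SHR/OlaIpcv, at 7.31 to 8.05. The 13 other inbred strains were all on the SHR/OlaIpcv side for the first, and 5 of them on the BN-Lx/Cub side for the second.

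The mitochondrial locus AY172581.9 split the RI strains by the direction of the cross. HXB and BXH strains come from reciprocal crosses of the progenitors, and mitochondrial DNA passes through the mother. Its pair of features covered positions 68 to 6867 of the mitochondrial genome and shared 2902 exon bases. The first had 12.9, 12.1 and 12.8 in BN-Lx/Cub and 10.5, 10.6 and 10.8 in SHR/OlaIpcv, and the second 9.13, 8.71 and 9.74 against 13.6, 12.3 and 13.1. The differences were 1.95 (adjusted p = 0.0156, limma) and -3.80 (adjusted p = 8.94e-10). The first was not called when any 1 replicate number was left out, with adjusted p of 0.103 to 0.175. The BN-Lx/Cub side held all 10 BXH strains and no HXB strain for both features. In the BXH strains the first ran from 12.29 to 12.93 and the second from 8.79 to 9.47, and in the 20 HXB strains they ran from 10.16 to 11.37 and from 11.81 to 12.94. The other inbred strains were mixed, since all 13 were on the SHR/OlaIpcv side for the first feature and 8 of 13 on the BN-Lx/Cub side for the second. Batch 3 held BN-Lx/Cub animals and most BXH strains but no HXB strain, so batch and the direction of the cross were partly confounded.

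Not all opposed pairs held in the RI strains. In Dpp10 7 of 30 strains had both features on a parental side, and in 23 both features lay above the midpoint. In Ice2, a subunit of the little elongation complex, 20 strains had both features on a parental side, in Adgrb3, an adhesion receptor of synapses, 17, and in Wdr31 16. For Wdr31 all 30 RI strains lay on the SHR/OlaIpcv side of the lower feature, at 5.81 to 7.28, while BN-Lx/Cub had 2.90.

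**Figure D5:**
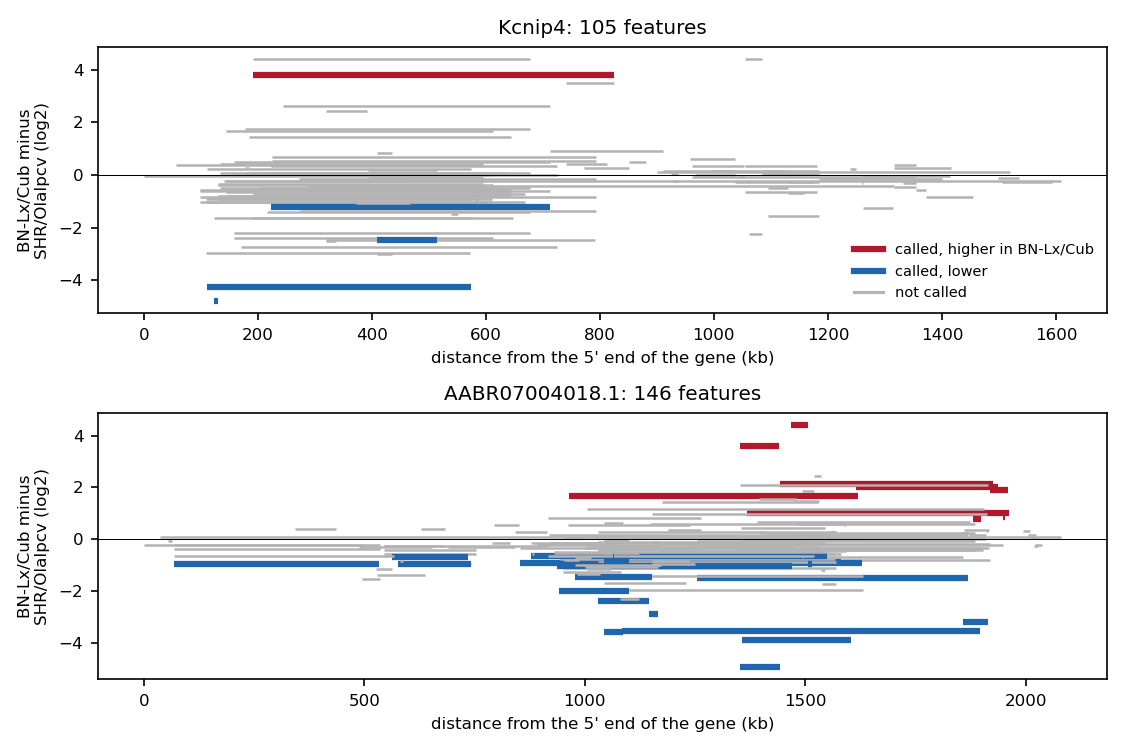
Position (x axis: distance from the 5′ end of the gene in kb) and difference between BN-Lx/Cub and SHR/OlaIpcv (y axis: log2) of each feature of Kcnip4 (105 features) and AABR07004018.1 (146 features), each drawn as a bar over its span. Called features, 1 higher and 4 lower in Kcnip4 and 9 higher and 20 lower in AABR07004018.1, lie among and over features that were not called.

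Lists of neuronal gene groups gave called shares on either side of those of the whole table. Of 91 genes of synaptic and neuronal adhesion 20 were split, into 655 features. For strain 212 were called (32.4%, against 36.7% of all features), and 182 differed from the rest of their gene (27.8%, against 30.3%). Cntn5 and the synaptic organizer Lrrtm4 were agreeing and Csmd2 had a deviant feature. The progenitors differed in 6 of the 655 features (0.916%, against 2.10% of all), of which 4 were lower in BN-Lx/Cub and 2 higher, in Adgrb3, Ptprd, Robo2 and Unc5d. Of 80 ion channel genes and ionotropic receptors 11 were split, into 468 features, with 177 called for strain (37.8%) and 164 against the rest of their gene (35.0%). Between the progenitors 14 of the 468 were called (2.99%, against 2.10% of all), 11 lower in BN-Lx/Cub and 3 higher, among them features of Dpp10, the Kv4 partner Dpp6, the GABA-A receptor subunit Gabrg3, Kcnip4 and the cation channel Trpm3.

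The other 3 lists held 1 feature called between the progenitors among 657 (0.152%, against 2.10% of all). Of 72 genes of synaptic scaffolds, vesicle release and signalling, presynaptic ones included, 12 were split, into 224 features. For strain 64 of these were called (28.6%), and 73 against the rest of their gene (32.6%). Between the progenitors 1 feature of Rims2, an active zone protein, was lower in BN-Lx/Cub. Of 29 RNA-binding and splicing genes 4 were split, into 115 features, with 28 called (24.3%), none of them between the progenitors. A list of 44 genes, mostly of chromatin and transcription factors but with Nav1, Nav2 and Nav3 besides, had 12 split genes with 318 features. Of these features 99 were called (31.1%) and 60 differed from the rest of their gene (18.9%). Arid1b, a subunit of BAF chromatin remodelling, and Jarid2 were agreeing. The median r of the highest feature with the Ensembl value was 0.655 for adhesion, 0.654 for channels, 0.733 for scaffolds, 0.773 for RNA binding and 0.756 for chromatin, against 0.581 over all split genes.

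The limit of 10 features was arbitrary. In the 106 genes with 9 features, just outside it, 36.8% of 954 features were called for strain, 28.7% against the rest of their gene and 1.36% between the progenitors. In the 90 genes with 10 features, just inside, these shares were 39.1%, 30.6% and 2.44% of 900 features.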

How the data were processed

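The values came from the deposited v5 table of reconstructed genes of rat brain RNA, 45 strains of 3 animals, with its deposited rn6 annotation, and from the v5 table of Ensembl genes. Per the submitters' processing notes for these libraries, the authors trimmed reads with cutadapt 1.9.1, removed ribosomal reads with Bowtie2 2.3.4.3, aligned to strain-specific rn6 genomes with HISAT2 2.1.0, assembled transcripts with StringTie 1.3.5, estimated counts with RSEM 1.3.1 (the study's methods name another version), removed 1 RUV factor (a technical factor estimated from control transcripts) and applied the regularized log of DESeq2. The deposited values are on a log2 scale. The columns that hold a value no log2 count can reach were read as a score on that scale, as deposited by the authors, and 4 member values over 30 were kept. How the authors made the Ensembl table beyond these tools is not given in the sources used here. Neither table holds counts, so depth is unknown and no counting interval could be given. RSEM shares a read between features that hold the same bases, so values of overlapping features are not independent measurements. Columns of strain means, transcripts and later processing versions were not used.

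Strain, replicate number and batch came from the labels, and the 3 animals of a strain were taken as replicates. Moderated F-tests and contrasts were run in limma 3.58.1 (R 4.3.3) on the whole table without a pseudocount, with Benjamini-Hochberg adjustment over all features tested and a 5% false discovery rate (FDR). "Called" means past that rate. The second F-test used the within-animal difference between a feature and the median of the other features of its gene. Agreement was Pearson's r across strain means and carries no test. Classes of agreement needed 4 or more called features in a gene. A gene was agreeing if each called feature had r of 0.5 or more with the mean of the others. It had 1 deviant feature if exactly 1 fell below 0.2 and was called in the second test while the others stayed at 0.5 or more. The scripts were tested on simulated data.

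Named were the 5 genes with most features, the 4 agreeing genes with the highest r, 8 genes with a deviant feature by its spread, the 3 largest called progenitor differences each way, 4 genes called in both directions, and the 3 lowest agreements with the Ensembl table. Members, gene lists and rules were chosen with earlier results of these data known. The side of the parental midpoint in the HXB/BXH strains, with its limit of 25 of 30 strains, was added after the progenitor results were seen. Alternatives were batch as a covariate, the replicate number as a block, features above the median level only, Spearman's correlation, each panel alone, other limits for r, each replicate number left out, and 7 doubtful libraries left out. Promoter and miRNA sequences came from RefSeq (GRCr8), matched by symbol: 4 of 8 genes looked up had a promoter there. Python 3.11.15 with pandas 2.3.3 and scipy 1.17.1 was used for the rest. The authors' annotation gave all gene symbols. Some items are not reported here.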

Additional observations from a re-analysis of the deposited data

How the results depend on the processing

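Batch as a covariate lowered the features of split genes called for strain from 4721 to 2794, those called against the rest of their gene from 3604 to 1995 and those called between the progenitors from 341 to 152; batch and strain are partly confounded. Leaving out 1 replicate number leaves 2 animals a strain, except that BXH8/Cub has no replicate 2. This gave 1574 to 3401, 1311 to 2225 and 177 to 599 calls, where 599 was reached without replicate 1 and 177 without replicate 2. Of the members these were 12.8% to 27.6%, 10.6% to 18.0% and 1.44% to 4.86%. Of all features tested the shares were 12.2% to 21.8%, 10.5% to 18.8% and 1.06% to 2.41%. The replicate number went only weakly with shared deviations of animals of different strains. The median correlation of deviations was 0.01 for the same number (2926 pairs), -0.006 for different numbers and 0.05 for the same batch. The share of pairs above 0.1 was 10.8%, 5.31% and 25.1% in the same order. With the replicate number as a block the calls were 5587, 3924 and 359, each within 1.5 times. These were 45.3%, 31.8% and 2.91% of members, against 42.0%, 34.7% and 2.22% of all features tested. The median agreement between features, 0.20, was 0.24 among features above the median level of the table and ranged from 0.17 to 0.20 without 1 replicate number. The agreement of the highest feature with the Ensembl table, 0.581, was 0.54 with Spearman's correlation, 0.51 in the HXB/BXH strains alone, 0.52 with batch taken out, and 0.56 to 0.58 without 1 replicate number.

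The classes were the least stable values. Against 27 genes with 1 deviant feature, there were 16 in the HXB/BXH strains alone, 16 with the limit for deviance at 0, 61 with 0.3 in place of 0.5 for the other features, and 11 to 21 without 1 replicate number. Agreeing genes numbered 22 to 51 without 1 replicate number and 71 with 0.3 in place of 0.5, against 26. Genes with 4 or more called features, which a class needs, numbered 113 to 272 without 1 replicate number, lowest without replicate 2, against 396. The same gene with the same deviant feature was found for 22 of the 27 with Spearman's correlation, 18 without the doubtful libraries, 11 with batch taken out, 9 in the HXB/BXH strains alone, 7 in the inbred strains alone, and 1 to 3 without 1 replicate number. For 40 features called between the progenitors, 66 of 273 values over the alternatives were no longer past 5% FDR, in 28 features and under at most 4 alternatives each, with the direction kept, and none was reversed. Of 140 values of r for named genes and called features, 119 moved by over 1 SD. That SD was between single replicate numbers for the median r over genes, 0.0084 between called features and 0.0118 with the Ensembl table. It does not measure the spread of a single gene's r. Depth is unknown, and 3 animals a strain limit each strain mean.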
